A study of Homo sapiens with 18 samples.

Results

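The 9 genes described here are well-known long non-coding RNAs (lncRNAs): MALAT1, NEAT1, TUG1, MIAT, KCNQ1OT1, NORAD, PVT1, CYTOR and OIP5-AS1. They were chosen by name, and their Ensembl identifiers, with the version dropped, were found in all 18 count files through GENCODE symbols. The 18 files share 58444 genes, of which 14734 are annotated as lncRNA by GENCODE; TUG1 is the member that GENCODE types as protein-coding. The study sequenced RNA of HCC827 and NCI-H1975 (H1975 below), human lung adenocarcinoma cell lines obtained from the ATCC and grown untreated in RPMI medium with fetal calf serum. Each line gave 3 RNA samples from independently grown cells, and each RNA sample was sequenced on Oxford Nanopore PromethION (ONT, long reads of PCR-amplified cDNA), PacBio Sequel II (Iso-Seq, long reads) and Illumina NextSeq (75-nucleotide read pairs from fragmented RNA). ONT and Illumina libraries were made from poly(A)-selected mRNA (1.5 ng and 3.75 ng input, 14 and 11 PCR cycles), and PacBio libraries from total RNA with size selection around 2 kb and 12 PCR cycles. All libraries carried sequins, synthetic spike-in RNAs. Every line is a single cell line, so each difference between lines is a difference between these 2 lines and not between tumour types.

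LncRNAs are transcripts that are not translated, and many act in the nucleus by gathering proteins or by acting on chromatin near their own gene. MALAT1 lies in nuclear speckles and NEAT1 is the scaffold of paraspeckles; the 3′ end of MALAT1 and of the long NEAT1 form is made by RNase P, which leaves an end without a poly(A) tail. NORAD is a cytoplasmic RNA that binds the Pumilio proteins, KCNQ1OT1 is an imprinted antisense transcript that silences neighbouring genes in cis, and PVT1 lies beside the MYC oncogene.

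Gene totals ran from 81467393 to 116497461 counts in the ONT libraries and from 33362018 to 40200473 counts in 5 Illumina libraries. The remaining Illumina library, HCC827 replicate 2, held 10020699 counts, and the PacBio libraries held 37795 to 54339 counts each. Within PacBio, counts of HCC827 replicates 1 and 2 were closer than counting noise (mean chi-square 0.671), as were those of H1975 replicates 2 and 3 (0.550), so each such pair was counted as 1 sample. The labels give these libraries as separate replicates, and closeness of counts does not show that a pair is the same sample. With all libraries kept apart, 206 genes differed between the lines in PacBio, in place of 63. Among the file headers, the word repeat appears only in that of HCC827 Illumina replicate 3, which also carries another replicate number than its label, and poly(A) only in that of HCC827 PacBio replicate 3. The labels do not say what either word marks. All 9 listed markers of lung adenocarcinoma epithelium were detected in HCC827 on both deep platforms, with a summed Illumina level of 10509 to 15045 CPM (counts per 1000000 gene counts, unscaled) in HCC827 and 4361 to 4614 in H1975, while the summed fibroblast, blood and endothelial markers stayed at or below 8.55 CPM. The labels name independently grown cells, so p-values measure the spread between cultures of a line.

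Coordinates are GRCh38. Runs of A inside a transcript are shown because ONT and Illumina RNA was selected on poly(A). The longest run in the longest GENCODE transcript of each of 4 members stands below in capitals within 30 bases, read 5′ to 3′ along the transcript.
MALAT1 (chr11:65506090-65506119, plus strand): tctagcttAAAAAAAAAAAAAgcaaaagat
NEAT1 (chr11:65440839-65440868, plus strand): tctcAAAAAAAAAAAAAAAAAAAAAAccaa
MIAT (chr22:26670600-26670629, plus strand): cttAAAAAAAAAAAAAAAAAAAAAAAAgca
OIP5-AS1 (chr15:41301971-41302000, plus strand): AAAAAAAAAAAAAAAAAAAAAAAAAAAAAc
The runs held 13 bases of A in MALAT1, 22 in NEAT1, 24 in MIAT and 29 in OIP5-AS1. In the members not shown, the longest run held 29 in KCNQ1OT1, 18 in TUG1, 13 in CYTOR, 10 in NORAD and 6 in PVT1. Among lncRNA genes whose longest transcript was within a factor of 2 of the same length, a run at least as long was found in 24.3% of 375 for MALAT1, 36.1% of 36 for NEAT1, 3.04% of 395 for MIAT and 0.772% of 648 for OIP5-AS1. The MALAT1 run ended 1963 bases before the annotated transcript end. Whether capture or priming took place at these runs was not tested.

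NORAD is known for repeats that bind Pumilio proteins, and the 8-letter motif TGTANATA, searched on the transcript strand, occurred 15 times in it, which is 2.78 per kb. As many per kb were found in 0.213% of 2350 lncRNA genes whose longest transcript was within a factor of 2 of the same length. The stretch with a pair of adjacent motifs, in capitals, shows their spacing of 9 bases.
NORAD (chr20:36049483-36049572, minus strand): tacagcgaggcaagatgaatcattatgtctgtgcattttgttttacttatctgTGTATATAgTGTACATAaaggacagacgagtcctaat
A match of these letters is a description and not a measured binding site. MALAT1, MIAT, PVT1 and CYTOR held none in their longest transcript. KCNQ1OT1 held 9 (0.0982 per kb), NEAT1 6 (0.264 per kb), TUG1 2 (0.268 per kb) and OIP5-AS1 1 (0.113 per kb).

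CYTOR has a near-identical copy, MIR4435-2HG, on the same chromosome. The longest ungapped alignment between their annotated transcripts covered 1885 bases with 11 differences (99.4% identical) and held an identical stretch of 308 bases, longer than a 75-nucleotide read. The 120 bases with the densest differences, set in capitals, are given for both genes.
CYTOR (chr2:87630170-87630289, plus strand): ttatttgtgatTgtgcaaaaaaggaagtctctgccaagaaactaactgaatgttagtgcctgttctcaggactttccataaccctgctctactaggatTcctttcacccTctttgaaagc
MIR4435-2HG (chr2:111320557-111320676, minus strand): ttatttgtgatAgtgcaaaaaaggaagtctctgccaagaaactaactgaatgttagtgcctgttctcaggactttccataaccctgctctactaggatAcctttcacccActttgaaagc
Of all bases in the 39 annotated CYTOR transcripts, 86.7% lay in 31-base words that MIR4435-2HG also holds. CYTOR counts are therefore uncertain as to their gene of origin.

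MALAT1 lies at chr11:65497640-65508073 and NEAT1 at chr11:65422774-65445540, both on the plus strand and with exons covering the whole span. TUG1 (chr22:30969245-30979395) and MIAT (chr22:26646411-26676475) lie on the plus strand of chromosome 22, OIP5-AS1 (chr15:41283958-41322392) on that of chromosome 15, CYTOR (chr2:87454781-87636740) on that of chromosome 2 and PVT1 (chr8:127794526-128187101) on that of chromosome 8. KCNQ1OT1 (chr11:2597308-2700003) lies on the minus strand inside the protein-coding gene KCNQ1, which is read from the plus strand. NORAD (chr20:36045618-36051018) is a single exon of 5401 bases on the minus strand. Merged exon lengths in GENCODE 44 ran from 5.401 kb for NORAD to 92.625 kb for KCNQ1OT1.

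Levels per kb of merged exon differed over several orders of magnitude and their order depended on the platform. CPM values in this and the later accounts of the lines are on effective library sizes, that is, after TMM scaling (trimmed mean of M values) within a platform. In ONT, MALAT1 led in both lines, at 23.7 ± 20.1 CPM per kb in HCC827 and 13.1 ± 0.733 in H1975 (SD, n = 3 each), with CYTOR second at 7.67 ± 0.964 in HCC827, where it overlapped MALAT1, and 7.12 ± 0.179 in H1975. In Illumina, the HCC827 order was MALAT1 (40.4 ± 30.8 CPM per kb) and NORAD (33.5 ± 4.32), whose replicates overlapped, and then TUG1 (11.7 ± 1.32). In H1975, NORAD was the highest in Illumina at 69.7 ± 3.10 CPM per kb, followed by TUG1 at 29.6 ± 0.804 and MALAT1 at 23.7 ± 0.682, with no overlap between these neighbours. OIP5-AS1 and PVT1 had overlapping Illumina levels in each line, 1.77 ± 0.285 and 1.78 ± 0.318 CPM per kb in HCC827 against 3.88 ± 0.0376 and 3.83 ± 0.552 in H1975. MIAT and KCNQ1OT1 were the lowest in every case, with Illumina levels of 0.0262 ± 0.00371 and 0.000658 ± 0.000625 CPM per kb in HCC827 and 0.0774 ± 0.0129 and 0.0323 ± 0.00379 in H1975.

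**Figure D1:**
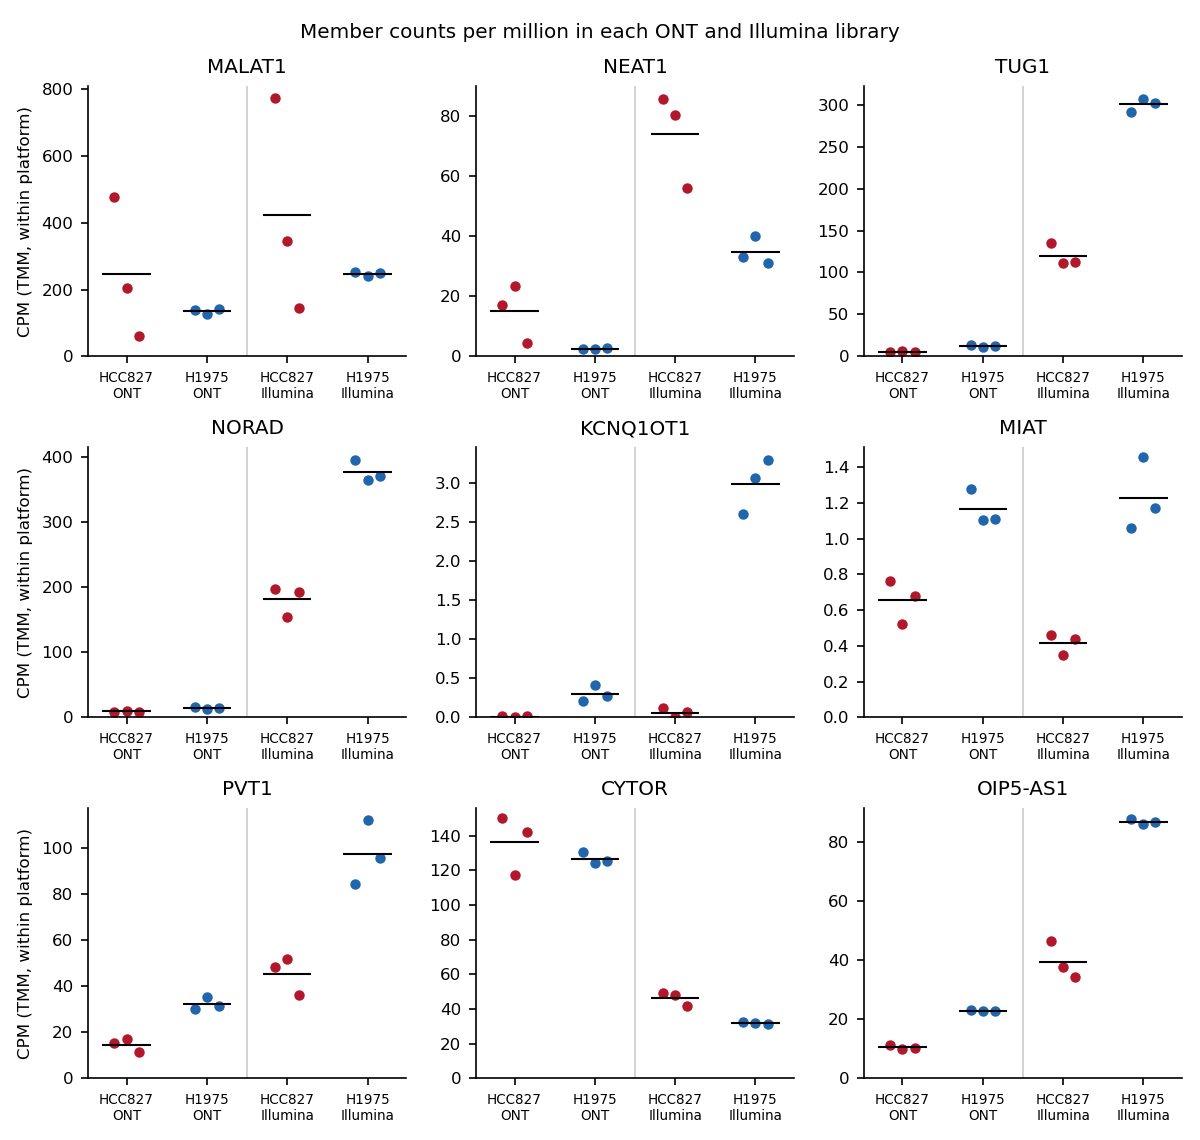
CPM (TMM-scaled within each platform; linear axes starting at 0) of the 9 members in the 3 HCC827 and 3 H1975 libraries of ONT (left of the grey line) and Illumina (right). Points are libraries and black lines are means; MALAT1 spans 61.5 to 476 CPM among the HCC827 ONT libraries, and 6 members are lower in every HCC827 library than in any H1975 library on both platforms.

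Between the lines, 7 of the 9 members passed the test in ONT (edgeR quasi-likelihood test, Benjamini-Hochberg adjusted p below 0.05, here termed called), 1 higher and 6 lower in HCC827 than in H1975. The lines differ widely: 62.7% of the 27366 genes tested in ONT were called, 31.1% higher and 31.6% lower in HCC827. In Illumina, 8 of 9 were called, 2 higher and 6 lower, against 74.1% of 25711 genes, with 36.1% higher and 38.0% lower. With 9 members, neither count stands far from the share among all genes. The median log2 difference of the 9 members was -0.83 in ONT and -1.11 in Illumina, beside -0.02 in ONT and -0.04 in Illumina over all genes tested and -0.31 in ONT and -0.22 in Illumina over all lncRNA genes tested. Libraries of the lines did not overlap for 7 of 9 members in ONT (69.1% of all genes tested, 33.2% higher and 35.9% lower in HCC827) and for 8 of 9 in Illumina (76.9%, 36.9% and 39.9%). TUG1, NORAD, OIP5-AS1, PVT1, MIAT and KCNQ1OT1 were called lower in HCC827 on both platforms, and NEAT1 was called higher on both. In bulk RNA, fewer expressing cells and less RNA per cell cannot be told apart.

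**Figure D2:**
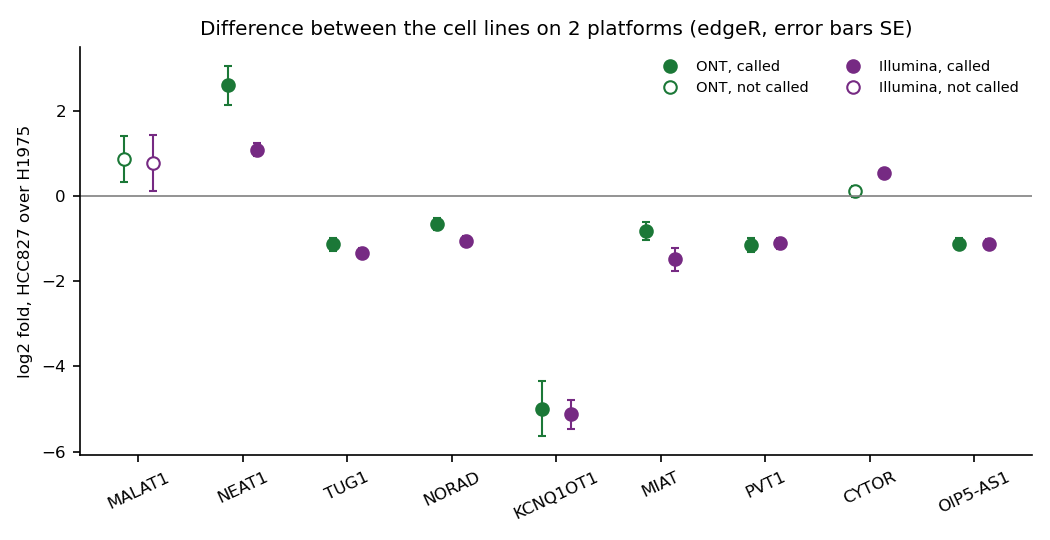
Log2 difference between the lines (HCC827 over H1975) for each member in ONT and Illumina, with the standard error of the edgeR fit as error bars; filled points have an adjusted p below 0.05. NEAT1 is above 0 and 6 members are below 0 on both platforms, while MALAT1 is called on neither and CYTOR in Illumina alone.

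NEAT1, which nucleates paraspeckles, was higher in HCC827. In ONT it was 17.2, 23.3 and 4.45 CPM in HCC827, against 2.31, 2.41 and 2.71 CPM in H1975. Its Illumina level was 85.7, 80.2 and 55.9 CPM in HCC827, against 33.0, 40.1 and 31.1 CPM in H1975. The lines did not overlap on either platform, and HCC827 replicate 3 was the lowest of its line on both. The log2 difference was 2.60 (SE 0.46, adjusted p = 0.000573) in ONT and 1.09 (SE 0.15, adjusted p = 1.15e-05, edgeR) in Illumina.

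MALAT1, a nuclear speckle RNA, had no called difference and a wide spread within HCC827. In ONT it stood at 476, 206 and 61.5 CPM in HCC827, against 138, 128 and 143 CPM in H1975. In Illumina it stood at 774, 346 and 145 CPM in HCC827, against 253, 239 and 248 CPM in H1975. On both platforms HCC827 replicate 1 was above, and replicate 3 below, all H1975 libraries, and the highest HCC827 library exceeded the lowest by 7.73-fold in ONT and 5.34-fold in Illumina, against 1.12-fold in ONT and 1.06-fold in Illumina within H1975. The order of the HCC827 replicates was the same on both platforms, which sequenced the same RNA samples. The log2 difference was 0.86 (SE 0.54, adjusted p = 0.189) in ONT and 0.77 (SE 0.66, adjusted p = 0.344, edgeR) in Illumina. Single libraries decided this value: without HCC827 replicate 1 it was -0.016 in ONT and -0.039 in Illumina, and without HCC827 replicate 3 it was 1.33 in ONT (adjusted p = 0.00230, edgeR) and 1.17 in Illumina (adjusted p = 0.00263).

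Genes that work with these nuclear RNAs were counted beside them. Of 20 listed paraspeckle proteins, all tested, 6 were higher and 7 lower in HCC827 in ONT (median log2 difference 0.20), and 11 were higher and 5 lower in Illumina (median 0.29). NONO, a core paraspeckle protein, was higher by a log2 difference of 1.54 (SE 0.14) in ONT and 1.50 (SE 0.10, adjusted p = 4.68e-09, edgeR) in Illumina. HNRNPUL1 had the largest Illumina difference upward, at 2.23 (SE 0.13), and HNRNPH3 the largest downward, at -0.73 (SE 0.09), while SFPQ, the partner of NONO, was not called at 0.21 (SE 0.17, adjusted p = 0.313) in ONT or 0.10 (SE 0.10, adjusted p = 0.383, edgeR) in Illumina. Of 13 listed factors of the MALAT1 3′ end (RNase P subunits, the tRNA 3′ processing enzyme ELAC2 and METTL16), 5 were higher and 3 lower in ONT, and 6 higher and 3 lower in Illumina. RPP25L was the highest, at 1.40 (SE 0.15) in ONT and 1.67 (SE 0.13) in Illumina, and POP1 the lowest, at -1.45 (SE 0.17) in ONT and -1.45 (SE 0.10) in Illumina.

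NORAD was lower in HCC827 on both platforms. In ONT it had 8.76, 10.0 and 7.99 CPM in HCC827, against 15.6, 12.9 and 13.9 CPM in H1975. It had 197, 154 and 192 CPM in HCC827 Illumina libraries, against 395, 364 and 371 CPM in those of H1975. The lines did not overlap, and the log2 difference was -0.66 (SE 0.15, adjusted p = 0.00287) in ONT and -1.05 (SE 0.11, adjusted p = 8.3e-07, edgeR) in Illumina. The Pumilio protein gene PUM2 was not called in ONT at -0.33 (SE 0.19, adjusted p = 0.148, edgeR) and was lower in Illumina at -0.88 (SE 0.10, adjusted p = 1.92e-06).

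TUG1, a broadly expressed lncRNA found in nucleus and cytoplasm, was also lower in HCC827. Its ONT level was 5.52, 5.97 and 4.93 CPM in HCC827, against 13, 11.0 and 12.1 CPM in H1975. Its Illumina level was 135, 111 and 112 CPM in HCC827, against 291, 307 and 302 CPM in H1975. Every HCC827 library was below every H1975 library, and the log2 difference was -1.14 (SE 0.15, adjusted p = 6.59e-05) in ONT and -1.33 (SE 0.10, adjusted p = 3.97e-08, edgeR) in Illumina. Annotated genes on the opposite strand share the locus: ENSG00000269987 had 56.7% as many counts as TUG1 in ONT and 40% in Illumina, and with the strand setting of counting not given in the sources used here, reads of the strands cannot be told apart.

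OIP5-AS1, which binds the RNA-stabilising protein HuR (gene ELAVL1), was lower in HCC827. Its ONT level was 11.3, 10.0 and 10.3 CPM in HCC827, against 23.1, 22.8 and 22.8 CPM in H1975. Its Illumina level was 46.7, 37.5 and 34.4 CPM in HCC827, against 87.7, 86.0 and 86.8 CPM in H1975. The lines did not overlap on either platform, and the log2 difference was -1.12 (SE 0.13, adjusted p = 3.47e-05) in ONT and -1.13 (SE 0.11, adjusted p = 5.1e-07, edgeR) in Illumina. ELAVL1 was higher in HCC827, at 0.91 (SE 0.17, adjusted p = 0.000723) in ONT and 0.41 (SE 0.09, adjusted p = 0.00136, edgeR) in Illumina. OIP5-AS1 shares exon positions with OIP5 on the opposite strand and with NUSAP1 on its own strand.

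PVT1, whose locus lies beside MYC, was lower in HCC827. Its ONT level was 15.2, 16.9 and 11.4 CPM in HCC827, against 30.1, 35.3 and 31.3 CPM in H1975. Its Illumina level was 48.2, 51.5 and 36.2 CPM in HCC827, against 84.3, 112 and 95.6 CPM in H1975. The lines did not overlap, and the log2 difference was -1.15 (SE 0.17, adjusted p = 0.000152) in ONT and -1.11 (SE 0.14, adjusted p = 4.29e-06, edgeR) in Illumina. MYC, 51.6 kb away, was not called on either platform, with a log2 difference of -0.29 (SE 0.16, adjusted p = 0.124) in ONT and 0.02 (SE 0.10, adjusted p = 0.868, edgeR) in Illumina.

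KCNQ1OT1 had the largest difference of the 9 members and few counts. In ONT it had 1, 0 and 1 counts in HCC827, against 23, 41 and 28 counts in H1975. In Illumina it had 4, 0 and 2 counts in HCC827, against 108, 141 and 124 counts in H1975. Every H1975 library was above every HCC827 library. The pooled CPM on unscaled gene totals in HCC827 was 0.0185 of that in H1975 in ONT (95% exact interval 0.00221 to 0.0687) and 0.0218 in Illumina (0.00795 to 0.0479), with intervals that cover counting error only. The fitted log2 difference, which depends on the prior count at such low values, was -5.0 (SE 0.65, adjusted p = 6.37e-05) in ONT and -5.12 (SE 0.34, adjusted p = 7.41e-09, edgeR) in Illumina. KCNQ1, the potassium channel gene that KCNQ1OT1 runs through in the opposite direction, was lower too, at -1.51 (SE 0.29, adjusted p = 0.000878) in ONT and -3.27 (SE 0.28, adjusted p = 9.9e-08, edgeR) in Illumina. Reads of this pair cannot be told apart here, since the strand setting is not known.

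Of the 9 listed genes of the imprinted domain around KCNQ1OT1, 8 were tested, and 4 were higher and 2 lower in HCC827 on each platform (median log2 difference 0.41 in ONT and 0.32 in Illumina). SLC22A18, a membrane transporter gene, was higher at 1.70 (SE 0.15, adjusted p = 4.33e-06) in ONT and 2.24 (SE 0.13, adjusted p = 2.64e-09, edgeR) in Illumina. NAP1L4, a histone chaperone, was lower at -0.78 (SE 0.13, adjusted p = 0.000384) in ONT and -0.85 (SE 0.10, adjusted p = 3.23e-06, edgeR) in Illumina. CDKN1C, a cell cycle inhibitor silenced by the mouse homologue of KCNQ1OT1 in cis, was not called, at -0.04 (SE 0.12, adjusted p = 0.774, edgeR) in Illumina. ASCL2, a transcription factor, had 144 counts in HCC827 and 0 in H1975 in ONT, which is at least 40.8-fold higher in CPM on unscaled gene totals in HCC827 against a floor of 3 counts over the group. In Illumina it had 52 counts in HCC827 and 2 in H1975 (ratio of levels 35.2, 95% exact interval 9.27 to 299).

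MIAT, which binds the splicing regulators QKI and SF1, was low and was lower in HCC827. Its ONT counts were 71, 44 and 48 in HCC827, against 142, 109 and 112 in H1975. Its Illumina counts were 16, 3 and 13 in HCC827, against 44, 67 and 44 in H1975. The CPM did not overlap between the lines, and the log2 difference was -0.83 (SE 0.21, adjusted p = 0.00575) in ONT and -1.49 (SE 0.27, adjusted p = 0.000182, edgeR) in Illumina. QKI was lower, at -0.88 (SE 0.18, adjusted p = 0.00161) in ONT and -1.09 (SE 0.13, adjusted p = 4.18e-06, edgeR) in Illumina, and SF1 was higher, at 1.22 (SE 0.21) in ONT and 1.08 (SE 0.12) in Illumina. Over all 8 listed protein partners, which also include the Polycomb proteins EZH2, SUZ12 and EED, 3 were higher and 1 lower in ONT, and 3 were higher and 3 lower in Illumina.

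CYTOR, named for its link to the cytoskeleton, was called in Illumina alone. Its ONT level was 150, 117 and 142 CPM in HCC827, against 130, 124 and 125 CPM in H1975, and HCC827 replicate 2 lay below all 3 H1975 libraries. Its Illumina level was 48.9, 48.1 and 41.6 CPM in HCC827, against 32.3, 32.0 and 31.2 CPM in H1975, with no overlap. The log2 difference was 0.11 (SE 0.13, adjusted p = 0.493) in ONT and 0.54 (SE 0.10, adjusted p = 0.000153, edgeR) in Illumina. Without HCC827 ONT replicate 2 the ONT value was 0.23 (adjusted p = 0.0325), and on library totals with no scaling it was -0.46 (adjusted p = 0.00176), while the Illumina value on library totals was 0.18 (adjusted p = 0.141). The copy MIR4435-2HG, which shares most of the CYTOR sequence, was not called, at 0.12 (SE 0.13, adjusted p = 0.438) in ONT and 0.18 (SE 0.10, adjusted p = 0.113, edgeR) in Illumina.

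Library totals without scaling moved the median log2 difference of all genes between the lines by -0.55 in ONT and -0.35 in Illumina. Relative to that median, each of the 9 members kept its direction. The direction of NEAT1 and of the 6 lower members was the same without this correction too.

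Whether the difference between lines depended on the platform was tested by the interaction term of a fit over the 12 ONT and Illumina libraries. None of the 9 members was called, against 7.16% of 29395 genes (5.03% higher and 2.13% lower in ONT). Of the members, 3 had an unadjusted p under 0.05, and DESeq2 and limma-voom also called 0. NEAT1 had the largest estimate, with a line difference higher in ONT than in Illumina by 1.67 (log2, SE 0.65, adjusted p = 0.179, edgeR). Without HCC827 ONT replicate 3, where NEAT1 was low, the estimate was 2.07 (adjusted p = 1.04e-05), and without a filter on low counts it was called at 1.70 (SE 0.22, adjusted p = 9.14e-13). NORAD came closest to the threshold with all libraries, at 0.55 (SE 0.18, adjusted p = 0.0828, edgeR). With the RNA sample as a replicate block, which the shared RNA allows, NORAD was called at 0.56 (SE 0.16, adjusted p = 0.0359), and without HCC827 ONT replicate 3 at 0.59 (adjusted p = 0.0399). On library totals with no scaling, CYTOR was called at -0.64 (SE 0.16, adjusted p = 0.0173).

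Protein-coding genes near the members did not follow a single pattern. FRMD8, 9.25 kb from NEAT1, was lower in HCC827 in ONT at -0.39 (SE 0.15, adjusted p = 0.0389, edgeR) and was not called in Illumina at -0.24 (SE 0.11, adjusted p = 0.0646). MORC2, which starts 0.471 kb from TUG1, was not called in ONT at -0.28 (SE 0.14, adjusted p = 0.105, edgeR) and was lower in Illumina at -0.72 (SE 0.09, adjusted p = 5.6e-06). CHP1, 2.07 kb from OIP5-AS1, was lower at -0.51 (SE 0.14) in ONT and -0.40 (SE 0.09) in Illumina, and NDUFAF1 on the other side was lower at -1.09 (SE 0.15) in ONT and -0.84 (SE 0.11) in Illumina. EPB41L1, 40.5 kb from NORAD, was higher by 1.96 (SE 0.15) in ONT and 1.84 (SE 0.10) in Illumina, while NORAD was lower.

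Other well-known lncRNAs were counted the same way. Of 34 further listed lncRNAs found in the files, 31 were tested in ONT, and 8 were higher and 8 lower in HCC827 (median log2 difference 0.18); in Illumina, 12 were higher and 5 lower among 31 (median 0.13). HOTAIRM1, transcribed from the HOXA cluster, had the largest difference upward, with 3694 counts in HCC827 and 1 in H1975 in ONT, and 1052 in HCC827 and 3 in H1975 in Illumina (Illumina ratio of levels 475, 95% exact interval 162 to 2307). CRNDE had the largest fall in HCC827, with a log2 difference of -2.68 (SE 0.18, adjusted p = 6.29e-07) in ONT and -2.37 (SE 0.15, adjusted p = 4.8e-09, edgeR) in Illumina. The GENCODE lncRNA genes as a whole had 1393 higher and 2372 lower among 6032 tested in ONT, and 1620 higher and 2223 lower among 5490 tested in Illumina.

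Profiles over the 12 ONT and Illumina libraries were compared by the root mean square distance of log2 CPM centred within each platform, among 15074 genes. The closest gene to TUG1 was its opposite-strand neighbour ENSG00000269987, at a distance of 0.06, followed by RBAK-RBAKDN (0.07). The closest to CYTOR was NCAL1, at 0.03, which overlaps it on the same strand, followed by DLEU1 (0.06). TOR1AIP2 (0.06) was close to OIP5-AS1, and the closest to NORAD were PJA2 (0.07) and ELK3 (0.08). ZNF773 and SFMBT1 (both 0.12) were closest to PVT1, ATG12 (0.13) and CRYBG3 (0.14) to MIAT, and EFCAB13-DT (0.31) and OSBPL6 (0.32) to KCNQ1OT1. MALAT1 had the most distant nearest gene of the 9 members, the pseudogene ENSG00000197550 at 0.40, followed by LINC01572 at 0.51. NEAT1 was nearest to GUSBP18 (0.30) and MYO9B (0.33). These distances are descriptions over libraries that share RNA samples.

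The level of a member relative to other genes depended strongly on the platform. Of 9 members, 7 were called between ONT and Illumina, 2 higher and 5 lower in ONT, where 83.4% of 29395 genes were called, 44.2% higher and 39.1% lower. The median log2 ratio was -0.43 over the members, 0.46 over all lncRNA genes tested and 0.12 over all genes tested. This fit took the libraries as independent, although each RNA sample was sequenced on both platforms. With the RNA sample as a replicate block, 8 of 9 members were called, 3 higher and 5 lower in ONT. That fit called 24829 of 29395 genes, 13136 higher and 11693 lower. RNA input, PCR cycles, library preparation and sequencer differ together between platforms and cannot be told apart. CPM in the sentences that follow is scaled over the 12 libraries of both platforms.

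CYTOR was the most raised in ONT, at 201 to 261 CPM, against 19.3 to 28.7 CPM in Illumina, with a log2 ratio of 3.27 (SE 0.09, adjusted p = 7.72e-17, edgeR). MIAT was also higher, at 0.899 to 2.11 CPM in ONT, against 0.203 to 0.889 CPM in Illumina (log2 ratio 1.74, SE 0.17, adjusted p = 1.67e-08). The platforms did not overlap for these genes. For CYTOR, MIR4435-2HG counts were 105% to 109% of CYTOR counts in ONT libraries and 194% to 281% in Illumina libraries. LINC01943, which overlaps CYTOR on the opposite strand, stood at 82.5% to 91.9% in ONT and 33.9% to 40.7% in Illumina. NCAL1, on the same strand, stood at 103% to 108% in ONT and 133% to 143% in Illumina. How reads over several of these genes were assigned is not given, so the CYTOR ratio cannot be read as a level of CYTOR alone.

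NORAD and TUG1 had the largest ratios in the other direction. NORAD had 13.8 to 25.8 CPM in ONT, against 89.5 to 242 CPM in Illumina, and TUG1 had 8.52 to 21.5 CPM in ONT, against 64.3 to 187 CPM in Illumina. Neither overlapped, and the log2 ratios were -3.05 for each (SE 0.10, adjusted p = 8.78e-16 for NORAD, and SE 0.09, adjusted p = 3.47e-16 for TUG1, edgeR). NEAT1 was lower in ONT by -1.56 (SE 0.33, adjusted p = 0.00113, edgeR), KCNQ1OT1 by -1.77 (SE 0.53, adjusted p = 0.00462) and OIP5-AS1 by -0.43 (SE 0.09, adjusted p = 0.000201). The KCNQ1OT1 ratio was -1.46 (adjusted p = 0.0849, edgeR) without HCC827 Illumina replicate 1.

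PVT1 was not called between the platforms, at -0.12 (SE 0.11, adjusted p = 0.312, edgeR), and was called at -0.33 (adjusted p = 0.0147) or -0.29 (adjusted p = 0.0336) without H1975 Illumina replicate 1 or 3. MALAT1 was not called at 0.68 (SE 0.52, adjusted p = 0.250, edgeR), and was called higher in ONT at 0.61 (SE 0.07, adjusted p = 9.02e-07) with the RNA sample as a replicate block. These ratios are relative to other genes. On library totals with no scaling the median of all genes moved by -1.48, MIAT was at 0.23 (adjusted p = 0.195, edgeR), MALAT1 at -0.84 (adjusted p = 0.159) and PVT1 at -1.62 (adjusted p = 9.02e-09). TUG1 and NORAD, at -4.55 and -4.54, and CYTOR, at 1.77, kept their direction.

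Short annotated features inside the members were counted as genes of their own. This comparison was chosen after the values were seen. The counts of each were expressed as a percentage of the host's in each library. The labels do not say how a read over both was assigned; in PacBio the 4 TUG1 features held 7 or 8 counts each, 29 in all, against 14 counts of TUG1, so the percentages are ratios of counts and not parts of a whole. Of 13 features in 4 members with enough counts, 11 differed between ONT and Illumina (exact permutation test of 6 against 6 libraries, two-sided, adjusted over the 13). The smallest unadjusted p this test can give is 0.00216. It took the libraries as independent, although the same RNA samples gave both sets. Its p-values therefore do not use the pairing and can overstate the evidence.

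In TUG1, features at 1.76, 2.05, 3.61 and 4.17 kb from the gene start stood at 3.33% ± 0.924, 5.79% ± 1.77, 14.1% ± 5.07 and 17.0% ± 5.04 of TUG1 counts in ONT (SD, n = 6), against 4.03% ± 0.274, 2.85% ± 0.245, 5.64% ± 0.243 and 4.10% ± 0.661 in Illumina. The ONT percentage was higher at the 3 later positions (exact permutation adjusted p = 0.00313 each) and not distinguishable at the first (adjusted p = 0.138). The feature at 4.17 kb had a mean of 12.7% in HCC827 and 21.2% in H1975 in ONT, and 3.62% in HCC827 and 4.58% in H1975 in Illumina; these line differences were not tested.

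In NEAT1, 3 features within 1.19 kb of the gene start stood at 0.612% ± 0.479, 1.04% ± 0.789 and 1.86% ± 1.29 of NEAT1 counts in ONT, against 4.25% ± 1.39, 3.66% ± 1.22 and 5.46% ± 1.90 in Illumina (SD, n = 6; exact permutation adjusted p = 0.00313, 0.00563 and 0.00767). The ONT values of these 3 features rest on few counts, 20, 23 and 43 over the 6 libraries. MIR612, at 21.7 kb and inside the long NEAT1 form alone, stood at 0.387% ± 0.451 in ONT and 0.383% ± 0.124 in Illumina (exact permutation adjusted p = 0.994). The ONT values rest on 4, 2 and 1 counts in HCC827 and 1, 3 and 0 counts in H1975, and without H1975 ONT replicate 2 the ONT mean was 0.212% ± 0.159 (n = 5, exact permutation adjusted p = 0.0909), so no likeness of the platforms can be read from it. In MALAT1, a feature at 5.27 kb stood at 0.677% ± 0.391 in ONT and 3.48% ± 0.732 in Illumina (exact permutation adjusted p = 0.00313, n = 6 each). A 57-base feature at 8.48 kb, which overlaps the end of the 30 bases shown above around the run of 13 A, stood at 0.298% ± 0.439 in ONT and 0.0266% ± 0.0245 in Illumina (exact permutation adjusted p = 0.00313, n = 6 each). Its Illumina value rests on 17 counts over the 6 libraries, against 164 in ONT, and the feature is shorter than a 75-nucleotide read. HCC827 ONT replicate 3 stood at 1.19% and the other ONT libraries at 0.0838% to 0.174%; without it the ONT mean was 0.119% ± 0.0345 (n = 5, exact permutation adjusted p = 0.00625).

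In PVT1, MIR1204, at 1.44 kb, stood at 9.01% ± 2.96 of PVT1 counts in ONT and 1.37% ± 0.182 in Illumina, and a feature at 96.1 kb stood at 32.6% ± 9.79 in ONT and 6.45% ± 0.953 in Illumina (SD, n = 6; exact permutation adjusted p = 0.00313 for both). A snRNA gene at 204.6 kb, RNVU1-32, stood at 2.98% ± 1.21 in ONT and 0.716% ± 0.272 in Illumina (exact permutation adjusted p = 0.00313). Read length differs between the platforms, and its part in these percentages was not tested.

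**Figure D3:**
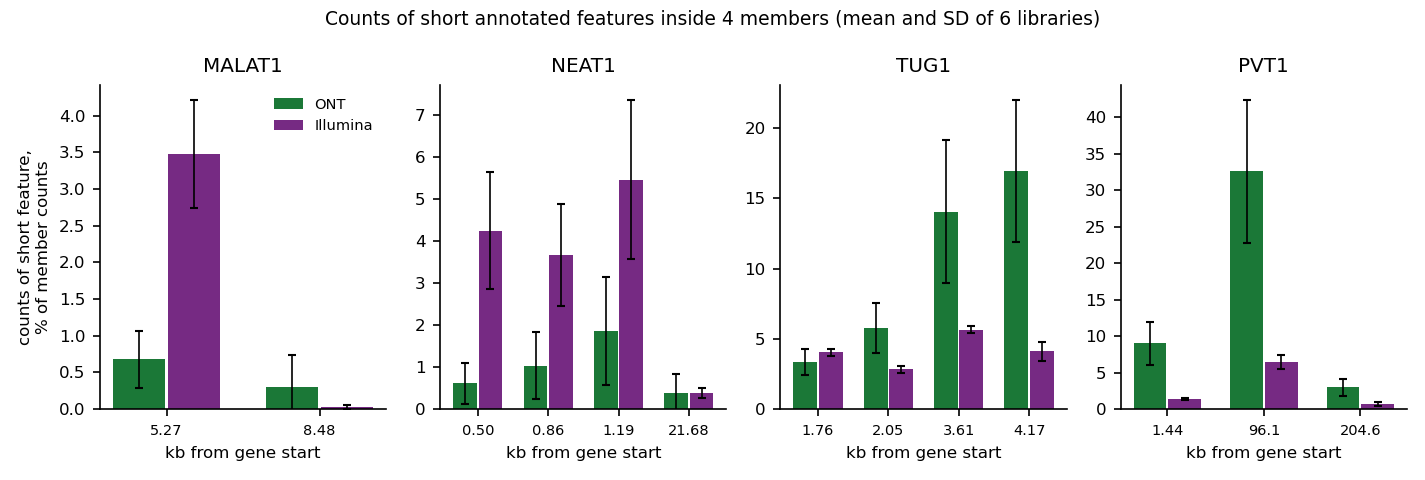
Counts of short annotated features inside 4 members, as a percentage of the member's counts, by distance of the feature from the gene start; bars are means of 6 ONT (left) or 6 Illumina (right) libraries and error bars are SD. In TUG1 the ONT bars reach 17.0% at 4.17 kb, against 4.10% in Illumina, while in NEAT1 the 3 features near the start are lower in ONT.

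PacBio depth limited what could be seen. PacBio counts are of clustered sequences and not of single reads, per the file headers. Levels, shares and folds against the other platforms therefore compare unlike measures. The 9 members had 7 counts in the 3 HCC827 libraries together and 48 counts in those of H1975, and the ratio of their shares was 0.159 (95% exact interval 0.0605 to 0.352, counting error only). By library they had 6, 1 and 0 counts in HCC827, against 7, 24 and 17 counts in H1975, and HCC827 replicate 1 (0.0110% of gene counts) lay close to H1975 replicate 1 (0.0170%). HCC827 replicate 1 carried most of the HCC827 counts: without it the ratio was 0.0383 (interval 0.00095 to 0.224). None of the 9 passed the filter on low counts in the PacBio comparison of the lines, where 3.34% of 1885 genes were called (1.54% higher and 1.8% lower in HCC827). TUG1 had 1 count in HCC827 and 13 in H1975 (ratio 0.0836, 95% exact interval 0.00197 to 0.557), and NORAD had 1 in HCC827 and 11 in H1975 (ratio 0.0988, interval 0.0023 to 0.680). OIP5-AS1 had 4 in HCC827 and 10 in H1975 (ratio 0.435, interval 0.0996 to 1.51). The intervals for TUG1 and NORAD lay below 1, in the direction seen on the other platforms, and that for OIP5-AS1 included 1. The single HCC827 counts of TUG1 and NORAD lay in replicate 1, and without that library OIP5-AS1 was at a ratio of 0.184 (interval 0.00423 to 1.29).

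MALAT1 had no PacBio count in HCC827 and 0, 4 and 1 counts in the H1975 libraries. In HCC827, a count of 0 among 133044 was set to a floor of 3 counts, or 22.5 CPM on unscaled gene totals. The upper end of its 95% exact interval was 27.7 CPM. ONT gave 47.7 to 379 and Illumina 123 to 729 CPM on the same scale. Against that floor, the PacBio level was at least 9.06-fold lower than the ONT mean and at least 17.0-fold lower than the Illumina mean. HCC827 replicate 1 carried both means: without it the bounds were 5.19-fold against ONT and 9.31-fold against Illumina, and against the lowest single library they were 2.12-fold in ONT and 5.47-fold in Illumina. In H1975 it was 34.6 CPM in PacBio (95% exact interval 11.2 to 80.7), against 155 to 175 in ONT and 273 to 284 in Illumina. CYTOR had no count in H1975 and, with a floor of 3 counts, was at least 7.40-fold lower in PacBio than in ONT. MIAT had no PacBio count in either line, and at its ONT level 0.204 counts would be expected in H1975, so nothing can be read from the 0.

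Other members stood higher in PacBio than in ONT in CPM on unscaled gene totals. TUG1 in H1975 was at 89.9 CPM in PacBio (interval 47.9 to 154), against 13.4 to 15.7 in ONT and 327 to 351 in Illumina. NORAD in H1975 was at 76.0 CPM in PacBio (interval 38.0 to 136), against 15.6 to 18.8 in ONT and 416 to 443 in Illumina. OIP5-AS1 in H1975 was at 69.1 CPM in PacBio (interval 33.2 to 127), against 27.6 to 27.9 in ONT and 97.9 to 98.3 in Illumina. The PacBio intervals lay above the ONT range for all 3 of these genes, below the Illumina range for TUG1 and NORAD, and around it for OIP5-AS1.

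The edgeR fits, scaled by TMM, called 6 of 9 members lower in PacBio than in Illumina (33.5% of 24218 genes called, 7.35% higher and 26.2% lower) and 6 of 9 lower than in ONT (42.2% of 27871 called, 8.41% higher and 33.8% lower). The median log2 ratio over all genes tested was -3.89 for PacBio over Illumina and -5.42 for PacBio over ONT. PacBio libraries held only 740 to 1273 genes with 10 or more counts, so these medians do not give the level of a typical gene. On library totals, PacBio over ONT called 7819 genes higher and 2407 lower. Direction against ONT turned with the scaling: TUG1 was at -1.35, NORAD at -1.95 and OIP5-AS1 at -1.50 with TMM, and at 1.68, 1.07 and 1.53 on library totals, where OIP5-AS1 alone was called (adjusted p = 0.0162, edgeR). The median of all genes was -5.42 with TMM and -4.76 on library totals. At this depth it rests on genes with few PacBio counts, so lying above it shows no enrichment of these members. The interaction of line with platform was called for no member, against 0.00826% of genes for PacBio and Illumina (0.00413% higher and 0.00413% lower in PacBio) and 0.0144% for PacBio and ONT (0.00359% higher and 0.0108% lower). At an unadjusted p under 0.05, 0 and 2 members passed in these tests, DESeq2 called 0 in each, and limma-voom called 2 and 1.

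**Figure D4:**
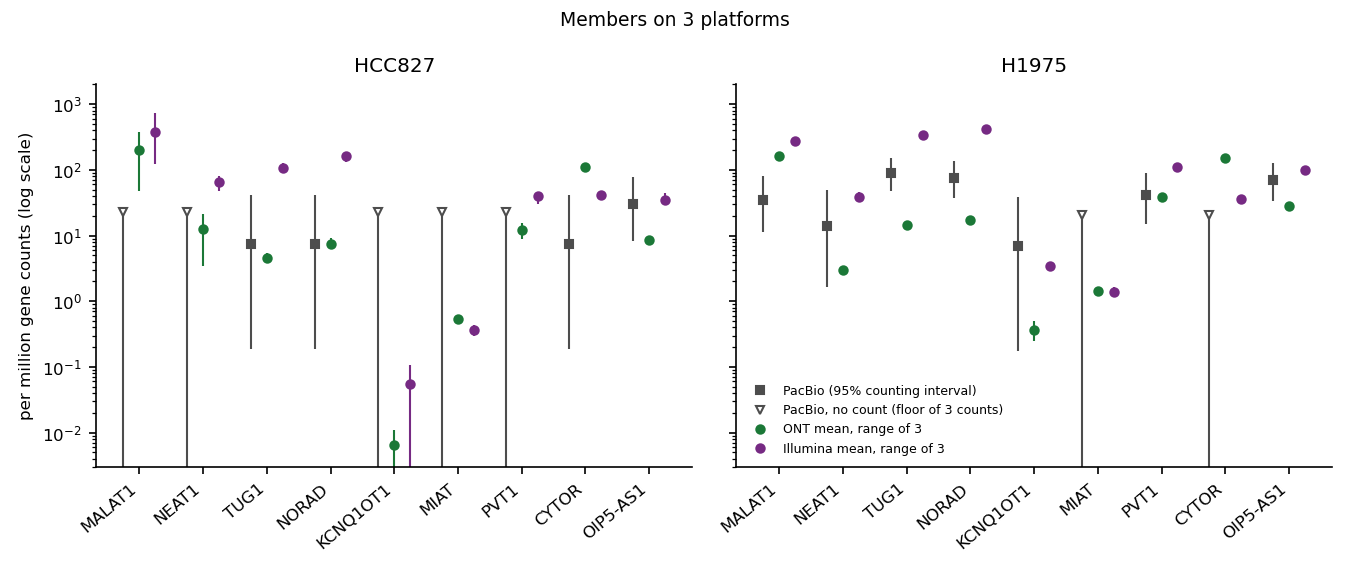
CPM of the members on unscaled gene totals (log axis) in HCC827 (left) and H1975 (right); grey squares are pooled PacBio counts with 95% exact intervals, open triangles mark the level that a count of 0 allows (3 counts), and green and purple points are ONT and Illumina means with the range of 3 libraries (lines cut at the axis floor). In H1975, PacBio lies above ONT for TUG1, NORAD and OIP5-AS1 and below it for MALAT1 and CYTOR.

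Together the 9 members took 0.0392% ± 0.0118 of gene counts in ONT (SD, n = 6) and 0.108% ± 0.0366 in Illumina (n = 6; exact permutation test, adjusted p = 0.0130). In PacBio they took 0.0160% ± 0.0172 (SD, n = 4), below Illumina (exact permutation adjusted p = 0.0143) and below ONT (adjusted p = 0.0381). The difference between PacBio and ONT lost its call when any 1 of 7 libraries was left out (ONT HCC827 replicate 1 and H1975 replicates 1, 2 and 3; PacBio HCC827 replicate 3 and H1975 replicates 1 and 3), with an adjusted p of up to 0.0952. All lncRNA genes together showed another order, with 14.8% ± 0.886 in PacBio (SD, n = 4), 11.5% ± 0.171 in ONT (n = 6) and 8.56% ± 1.13 in Illumina (n = 6). PacBio was above both others (exact permutation adjusted p = 0.00952 each), and ONT was above Illumina (exact permutation adjusted p = 0.00649). The smallest unadjusted p of the exact permutation test is 0.00952 for 4 against 6 libraries and 0.00216 for 6 against 6. All share tests took the libraries as independent, although the same RNA samples gave all 3 platforms. Their p-values therefore do not use the pairing and can overstate the evidence. Without HCC827 Illumina replicate 3, the library whose header names a repeat and whose share was 10.9% against 8.04% to 8.15% in the other Illumina libraries, ONT exceeded Illumina by 3.42 percentage points, in place of 2.96.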

How the data were processed

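The deposited files hold raw gene counts, with a file for every library. The submitters' processing notes name minimap2 2.17, featureCounts and GRCh38; the strand setting, the annotation release and the treatment of reads over overlapping genes were not given in the sources used here. PacBio counts are of clustered sequences, per the file headers. Sequins and second pseudoautosomal copies were left out. Line differences were tested within each platform with edgeR 4.0.16 (R 4.3.3; filterByExpr, TMM, robust quasi-likelihood test, two-sided, Benjamini-Hochberg over all genes tested, threshold 0.05); platform ratios and interactions came from fits over the libraries of 2 platforms with equal weight to each line. Standard errors are the log2 fold divided by the root of F. Close PacBio pairs were summed. DESeq2 1.42.0, limma 3.58.1 and other scalings, filters and left-out libraries were alternatives; leaving out libraries for the PacBio ratios and bounds and for the short features was added after the values were seen. The tests were also run on simulated data in which most genes did not differ, unlike in the ONT and Illumina comparisons. That run therefore does not check the scaling. The RNA sample pairs the platforms per the labels. Deviations of same-numbered ONT and Illumina libraries correlated at 0.281 to 0.550 in HCC827 and 0.0204 to 0.238 in H1975 over 15074 genes. Differently numbered libraries correlated at -0.343 to -0.0652 in HCC827 and -0.231 to 0.0658 in H1975. In H1975, ONT replicate 2 correlated more with Illumina replicate 3 than with Illumina replicate 2, so these values do not bear out that pair. Intervals and floors (3 counts) cover counting error only, and reads without molecular identifiers are not independent molecules. Names, exon lengths and sequences are from GENCODE 44. Members and gene lists were chosen with earlier results of these data known. Besides the members, the text names list genes with the largest called Illumina difference in each direction, the nearest tested protein-coding genes, and for each member the 2 genes closest in profile; NONO, SFPQ, PUM2, ELAVL1, SLC22A18, NAP1L4, CDKN1C and MIR4435-2HG were added for their roles after their values were seen. Some genes that these rules name are not reported here. Of 60617 Illumina and 58676 ONT and PacBio identifiers, 60357 and 58207 matched GENCODE 44.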

Additional observations from a re-analysis of the deposited data

Results flagged for a closer look

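Among 30 sets of 6 libraries checked for a library far from the rest, 5 held such a library; chance alone flags about 1 set in 20. The share of gene counts on lncRNA genes was 10.9% in Illumina HCC827 replicate 3, whose file header alone names a repeat, against at most 8.15% in the other Illumina libraries; the unnamed genes ENSG00000280441 and ENSG00000278996 took 1.54% and 1.08% of its counts, against at most 0.148% and 0.101% elsewhere. In ONT HCC827 replicate 3, the MALAT1 feature at 8.48 kb stood at 1.19% of MALAT1 counts, against at most 0.174% in the other ONT libraries. In the same library, RNVU1-32 stood at 5.43% of PVT1 counts, against at most 2.72% elsewhere. In ONT H1975 replicate 1, the NEAT1 feature at 0.499 kb stood at 1.56% of NEAT1 counts, against at most 0.635% elsewhere, and in ONT H1975 replicate 2, MIR612 stood at 1.26%, against at most 0.389%.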

How the results depend on the processing

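Between the lines, 124 of 126 member values in Illumina and ONT kept direction and side of the threshold under the 7 scalings, filters, tools and the replicate block. The exceptions were CYTOR on library totals, which reversed to -0.46 in ONT and was not called in Illumina. No member passed the PacBio filter, and 1 was called without it; 63 genes called there became 475 without a filter, 15 with DESeq2, 34 with limma-voom, 206 with all PacBio libraries apart and 0 to 365 with a library left out. With a library left out, MALAT1 ranged from -0.016 to 1.33 in ONT and from -0.039 to 1.17 in Illumina, while members called ranged from 7 to 8 in ONT and from 8 to 9 in Illumina.
On library totals, the ONT over Illumina ratio of MALAT1 reversed to -0.84, the PacBio over ONT ratios of TUG1, NORAD and OIP5-AS1 reversed to 1.68, 1.07 and 1.53, and interaction terms reversed for MALAT1 (-0.15), TUG1 (-0.0020), PVT1 (-0.23) and OIP5-AS1 (-0.19); PVT1 was at -0.0498 with upper quartile scaling. With a library left out, interaction terms ranged from -0.65 to 1.05 for MALAT1, -0.17 to 0.91 for KCNQ1OT1 and -0.11 to 0.24 for PVT1. The ONT and Illumina interaction called 2105 genes, 3358 on library totals and 1300 to 3782 with a library left out, and it called 1 member each on library totals (CYTOR), without a filter (NEAT1) and with the replicate block (NORAD), and 0 to 2 with a library left out.
PacBio over Illumina called 8125 genes and 16766 with limma-voom, and PacBio over ONT 11772 and 20611. Members called in PacBio over ONT fell to 3 with upper quartile scaling and 2 on library totals, and ranged from 2 to 7 with a library left out. The PacBio and Illumina interaction called 2 genes, and 1 with DESeq2 size factors, 0 with upper quartile scaling, 13 without a filter, 18 with DESeq2, 2611 with limma-voom (2 members), 32 with the replicate block, 4 with libraries apart and 0 to 3 with a library left out. The PacBio and ONT interaction called 4 genes, and 0 with upper quartile scaling, 0 on library totals, 17 without a filter, 41 with DESeq2, 2500 with limma-voom (1 member), 95 with the replicate block and 0 to 5 with a library left out. The share of the members in PacBio minus ONT lost its call with 7 libraries left out in turn, ranging from -0.0273 to -0.0179 percentage points; the lncRNA share differences kept theirs.
On library totals, 23.9% of called genes were higher in HCC827 in ONT and 33.7% in Illumina, against 49.5% in ONT and 48.8% in Illumina with TMM; 25.6% were higher in ONT than in Illumina, against 53.0%. The replicate number as a block changed no member's call between lines (50 genes called in PacBio, 16320 in ONT and 18793 in Illumina); same-numbered libraries of the lines correlated at -0.222 to 0.0808 in ONT and -0.115 to 0.173 in Illumina, so the numbers are only names. The causes of these shifts were not tested. Depth limits the PacBio values and those of KCNQ1OT1 and MIAT most.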
